A study of Mus musculus with 24 samples.

Results

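Skeletal muscle and brown fat both burn fuel in dense mitochondria, but they spend the energy differently. Here 4 arrays of NZO skeletal muscle (titled quad in the series) were set against 4 arrays of NZO brown adipose tissue, 8 of the 24 arrays in the series. Membership followed the strain and tissue labels, and no measured value was used to choose a sample. All 8 RNA samples came from male New Zealand Obese mice of the NZO/HiBomDife substrain, a polygenic model of obesity and diabetes. They had been kept up to week 6 on chow in which fat made up 45%. The other 16 arrays held the same tissues of B6 mice and gonadal white fat (titled gWAT) of both strains, and all groups shared the diet and the sex. The labels name no transgene, deletion or pooling. Whether the 4 arrays of a tissue are 4 animals is not stated, and the p-values cover the spread among these samples alone, which may be technical.

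Muscle fibres contract when calcium released from the sarcoplasmic reticulum lets myosin pull on actin, and fast fibres pay for this mainly with phosphocreatine, glycogen and glycolysis. Brown adipocytes answer noradrenaline by breaking down stored triglyceride and oxidising the fatty acids, and the uncoupling protein UCP1 lets the resulting proton gradient run down as heat instead of driving ATP synthesis. Both lineages arise from the paraxial mesoderm of the embryo, and many of their enzymes and carriers exist as paired isoforms from separate genes.

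Levels are given as log2 of the spot signal after subtraction of the array's 75th percentile, so 0 is the 75th percentile and each unit is a doubling. A difference is the muscle mean minus the brown fat mean, and a negative difference means more signal in brown fat. Of 21636 genes tested, 13417 (62%) passed an adjusted p of 0.05 in limma, 5799 (26.8%) higher in muscle and 7618 (35.2%) higher in brown fat. With the 75th percentile taken over the probes well above background on all 8 arrays, the split was even, at 6666 and 6671. At least a 2-fold difference was also present for 3395 (15.7%) and 4075 (18.8%) of the tested genes. Among the 18383 genes well above background on all 8 arrays, 25% were called higher in muscle and 36.1% higher in brown fat, with a median difference of -0.14, in all 61.1%, and these shares are the background for every list below. Without any overlap between the groups, 25% of all tested genes were higher in muscle and 33.6% higher in brown fat. At the probe used, another 579 genes were above background on all muscle arrays and on no brown fat array, and 327 were the reverse. The 75th percentile of the raw signal was 163 to 205 units in muscle and 148 to 177 in brown fat, and 51.9% to 59% of probes were well above background, with no saturated spot. Correlations over probes were 0.96 to 0.974 among muscle arrays, 0.965 to 0.979 among brown fat arrays and 0.847 to 0.878 between the tissues. The scaling to detected probes named above moved the median of these genes from -0.14 to -0.01. Every difference below moves up by about that shift under this scaling. Among the genes called below, Ckb, Bcat2, Hoxc6, Ppargc1a, Dlat, Postn and Tpm3 lay near the threshold and lost their call when some single arrays were left out.

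The tissues matched their labels. Of 10 skeletal muscle fibre markers, 6 were well above background on all 8 arrays and all 6 were higher in muscle; the summed signal of the list was 9620 to 10900 times the 75th percentile on the muscle arrays. On the brown fat arrays the same sum was 8.63, 2.09, 3.54 and 2.19 for arrays 009, 011, 003 and 007, which is 0.0205% to 0.0847% of the muscle mean. Among the brown fat arrays, 009 held the most muscle fibre signal. Brown adipocyte markers summed to 2170 to 2380 in brown fat and to 25.3, 7.05, 13.9 and 7.19 in muscle, 0.311% to 1.11% of the brown fat mean. Mature adipocyte markers were less cleanly divided, since muscle held 154 to 304 against 2170 to 2580 in brown fat, or 6.53% to 12.9%. In bulk tissue, fewer cells of a type and less RNA per cell cannot be told apart.

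**Figure D1:**
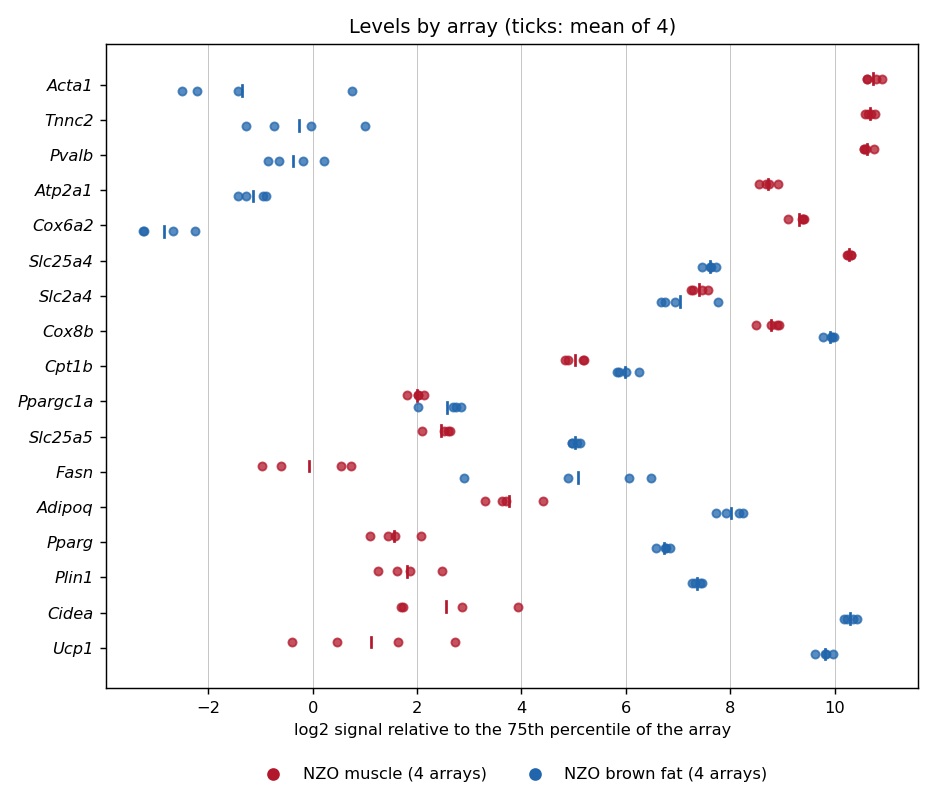
Each point is 1 array and each tick the mean of 4, as log2 signal with the 75th percentile of its array at 0, for contractile, adipocyte and shared genes. The tissues lie 12.09 apart for Acta1 and 8.70 apart for Ucp1, while Slc2a4 and Ppargc1a overlap.

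The contractile genes held the widest differences. The promoters of 3 muscle genes and 1 brown fat gene that recur below are shown first. Transcription factors of muscle and fat are known to read short motifs close to the start site. Each promoter was taken for holding such a motif, so these are examples and do not show how common the motifs are. Each window covers the 200 bases before the start, from RefSeq on GRCm38.p6. Capitals mark a CAGCTG E-box (read by MyoD-family factors) or a MEF2 motif in Pgam2 (chr11:5803797-5803996, minus strand), a MEF2 motif in Myh8 (chr11:67276924-67277123, plus strand), a CAGCTG in Atp2a1 (chr7:126463074-126463273, minus strand) and an AGGTCA, the half-site of PPAR and related receptors, in Plin5 (chr17:56117549-56117748, minus strand).
Pgam2: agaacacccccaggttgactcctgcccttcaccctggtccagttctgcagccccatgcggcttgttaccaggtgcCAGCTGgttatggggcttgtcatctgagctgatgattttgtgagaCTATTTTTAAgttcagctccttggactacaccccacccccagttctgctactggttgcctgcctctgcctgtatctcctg
Myh8: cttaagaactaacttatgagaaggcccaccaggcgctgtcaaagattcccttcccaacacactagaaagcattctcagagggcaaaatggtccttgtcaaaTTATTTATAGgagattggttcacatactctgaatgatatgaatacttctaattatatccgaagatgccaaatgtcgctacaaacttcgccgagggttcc
Atp2a1: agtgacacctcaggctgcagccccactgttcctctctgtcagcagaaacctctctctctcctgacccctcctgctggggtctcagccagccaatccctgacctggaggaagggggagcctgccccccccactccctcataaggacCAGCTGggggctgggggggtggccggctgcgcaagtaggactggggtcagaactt
Plin5: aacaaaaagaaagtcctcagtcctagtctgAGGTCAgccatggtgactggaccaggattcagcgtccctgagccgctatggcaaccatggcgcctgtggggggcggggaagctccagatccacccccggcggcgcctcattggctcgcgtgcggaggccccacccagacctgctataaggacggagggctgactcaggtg

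In Pgam2 the CAGCTG begins at -125 and the MEF2 motif at -80, and in Atp2a1 the CAGCTG begins at -55. The Myh8 MEF2 motif begins at -99 and overlaps a TATAAA on the other strand. Over the 250 bases before the start and on both strands, 13% of all 32851 promoters held a CAGCTG, 2.92% a MEF2 motif, 12.4% a TATAAA and 14% an AGGTCA. Among muscle genes, the E-box CAGCTG was present in 33.3% of 18 thick filament promoters, 35.7% of 14 thin filament promoters, 20% of 25 Z-disc promoters and 50% of 20 promoters of excitation and calcium genes. MEF2 motifs were present in 27.8%, 0%, 16% and 15% of the same promoters. In the lipid droplet, thermogenic, fatty acid oxidation and citric acid cycle lists, a CAGCTG was present in 19.4%, 13.8%, 11.1% and 5.88% of promoters. The lipid droplet share was thus close to the Z-disc share. A MEF2 motif was present in 0%, 6.9%, 0% and 0% of them. An AGGTCA was present in 25.8% of 31 lipid droplet promoters, 20.7% of 29 thermogenic promoters and 22.2% of 18 fatty acid oxidation promoters, but in 11.8% of 17 citric acid cycle promoters. In the 4 contractile lists it was present in 7.14% to 16%. These are counts of letters, and a match is not a bound site.

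All 9 thick filament genes measured in both tissues were higher in muscle, with a median difference of 7.66. Myh8, the perinatal fast myosin heavy chain, had levels of 10.47, 10.59, 10.52 and 10.63 in muscle (arrays 009, 011, 003 and 007) and 1.16, -3.94, -1.03 and -2.77 in brown fat. Every muscle array lay far above every brown fat array, and the brown fat arrays differed among themselves far more than the muscle arrays, with array 009 the highest. The difference was 12.2 (SE 0.95, adjusted p 1.0e-05). Its neighbours in the same cluster of near-identical genes, the adult fast myosins Myh4 (13.04, SE 1.05), Myh1 (14.02) and Myh2 (11.96), were above background on 3, 1 and 2 brown fat arrays. These differences rest in part on readings at background in brown fat, and cross-hybridisation among the copies was not tested. The slow myosin Myh7 also differed, by 7.57 (SE 0.33), with levels of 4.52 to 6.15 in muscle. Another 4 thick filament genes were above background in muscle alone, among them Myl2, the slow regulatory light chain, at least 721-fold, and Mylpf, its fast counterpart, at least 386-fold.

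In the thin filament, 10 of 11 genes measured in both tissues were higher in muscle (median 8.49). Acta1, the actin of the sarcomere, stood at 10.62, 10.79, 10.63 and 10.9 in muscle and at 0.75, -2.51, -1.43 and -2.22 in brown fat. The muscle arrays lay close together while the brown fat arrays spread widely, again with array 009 on top. The difference of 12.09 (SE 0.64, adjusted p 1.0e-06) corresponds to 4360-fold. The fast troponins followed the same course, with Tnnt3 at 13.03 (8360-fold), Tnni2 at 11.74 and Tnnc2 at 10.94. Actc1, the cardiac actin, was above background in muscle alone and at least 11700-fold higher there. The exception was Tpm3, a tropomyosin with slow-fibre and cytoskeletal forms, at -0.56 (SE 0.17, adjusted p 0.017), whose 3 probes gave differences from -0.56 to 7.36. Probes of the same gene also disagreed for Tpm1 (-0.54 to 8.71), so each of these tropomyosin values belongs to its probe and not to the gene.

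Z-disc and scaffold genes, which anchor and align the filaments, were higher in muscle for 12 of 13 members measured in both tissues (median 7.02), and 11 more were above background in muscle alone at the probe used. Tcap, the cap of titin, differed by 12.3 (SE 0.47) and nebulin, Neb, the ruler of the thin filament, by 10.62 (SE 0.23). The largest bounds among scaffold genes were Myot (myotilin), at least 4800-fold, and the ubiquitin ligases Trim54 and Trim63, at least 1340-fold and 1130-fold. Actn3, the fast alpha-actinin, was above background on all muscle arrays and on 1 brown fat array (levels 9.36 to 9.66 against -3.56, -6.79, -6.15 and -6.46). The member that did not pass the test was Synpo2 at -0.14, whose other probes reached 7.12.

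Excitation and calcium genes completed the contractile set, with 12 of 12 members measured in both tissues higher in muscle (median 6.71). Pvalb, the calcium buffer of fast fibres, was at 10.57, 10.75, 10.6 and 10.56 in muscle and 0.22, -0.65, -0.19 and -0.86 in brown fat, a difference of 10.99 (SE 0.22, adjusted p 6.5e-09). Atp2a1, the fast calcium pump, was at 8.56 to 8.91 against -1.44 to -0.9, a difference of 9.87 (SE 0.15). The slow and cardiac pump Atp2a2, also made outside muscle, differed by 0.79 alone (SE 0.24, adjusted p 0.018). The fold between the tissues was 936 for Atp2a1 and far smaller for its paralogue. Casq1, which stores calcium in the reticulum, was above background in muscle alone and at least 5780-fold higher, as were Trdn, its triadin partner (at least 3440-fold), the reticulum enzyme Dhrs7c (at least 3090-fold), the chloride channel Clcn1 (at least 57-fold) and the muscle-specific kinase of the synapse Musk (at least 22.1-fold). Srl, a calcium-binding reticulum protein, differed by 6.71 on 7 values, because 1 muscle spot on array 007 was an outlier and was left out.

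The creatine kinases, which make and spend phosphocreatine, divided by isoform. Ckm, the cytosolic creatine kinase of muscle, was at 9.79 to 9.91 in muscle and -6.5 to -2.66 in brown fat, where 1 array was above background. Its mitochondrial partner Ckmt2 was above background in muscle alone and at least 12500-fold higher, the largest bound in the comparison. The remaining creatine kinases leaned the other way, the mitochondrial Ckmt1 by -1.32 (SE 0.18) and the cytosolic Ckb by -0.54 (SE 0.21, adjusted p 0.048). In the phosphocreatine and adenylate list, 6 of 8 members measured in both were higher in muscle (median 2.34), among them Ak1 (4.6), which balances adenine nucleotides, Slc6a8 (2.41), the creatine transporter, and myoglobin, Mb (7.82). Ampd1, the AMP deaminase of muscle, was at least 2770-fold higher on 7 values, since muscle array 007 was left out as an outlier.

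Several enzymes of glycogen and glycolysis divided by isoform. Of 13 glycogen genes measured in both tissues, 9 were higher in muscle and 4 in brown fat (median 1.95). The muscle phosphorylase Pygm was at 8.7, 8.78, 8.97 and 8.68 in muscle and -0.33, 0.16, -0.77 and 0.66 in brown fat, a difference of 8.85 (SE 0.28). The liver phosphorylase Pygl was at 2.36, 1.65, 2.93 and 2.11 against 6.98, 8.02, 6.48 and 7.67, a difference of -5.02 (SE 0.38), and the brain form Pygb differed by -2.81 (SE 0.23). Groups did not overlap for any of these phosphorylases, and the sign followed the isoform. Glycogen synthase did the same on a smaller scale, with the muscle form Gys1 at 1.15 (SE 0.1) and the liver form Gys2 at -4.13 (SE 0.85, adjusted p 0.0029). Gys2 levels in brown fat ranged from -0.43 on array 003 to 3.97 on array 011. Phosphorylase kinase, which activates phosphorylase, divided in the same way: Phkg1 (8.02), Phka1 (5.45) and Phkb (3.12) were higher in muscle, and Phka2 (-3.27) and Phkg2 (-0.84), the forms known from liver, were higher in brown fat.

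Of 31 glycolysis and pyruvate genes, 15 were higher in muscle, 9 higher in brown fat and 7 did not pass, with a median of 0.31. Pgam2, the muscle phosphoglycerate mutase whose promoter is shown above, was at 9.57, 9.45, 9.59 and 9.56 in muscle and -2.5, -3.62, -3.7 and -3.67 in brown fat. Brown fat array 009 was again the highest of its group, and the difference was 12.91 (SE 0.26), or 7720-fold. Pgam1, the form of most other tissues, was at 3.02 to 3.56 in muscle and 7.34 to 7.83 in brown fat, a difference of -4.21 (SE 0.16). Phosphofructokinase divided into Pfkm at 4.91 (SE 0.11) against Pfkl at -5.34 (SE 0.18) and Pfkp at -3.64 (SE 0.18). Enolase divided into Eno3 at 7.71 (SE 0.16) against Eno1 at -2.53 (SE 0.22), and lactate dehydrogenase into Ldha at 0.55 (SE 0.12) against Ldhb at -1.48 (SE 0.27). The aldolases did not divide, with Aldoa at 0.6 (SE 0.14) and Aldoc at 0.31, which did not pass (adjusted p 0.22) but was called higher in muscle without brown fat array 003. At steps served mainly by 1 gene, Tpi1 differed by 2.51, Gapdh by 1.35, Pgk1 by 1.02 and Gpi1 by 0.71. The hexokinases Hk1 (0.11, adjusted p 0.42, with another probe at -1.6) and Hk2 (-0.04, adjusted p 0.93) did not pass the test. The lactate exporter Slc16a3 differed by 9.05 (SE 0.3), while its importing relative Slc16a1 had a difference of -0.45 that did not pass (adjusted p 0.16). Pyruvate dehydrogenase subunits were divided, with Pdhb at -0.99 and Pdha1 at -0.59 against Dlat at 0.68.

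**Figure D2:**
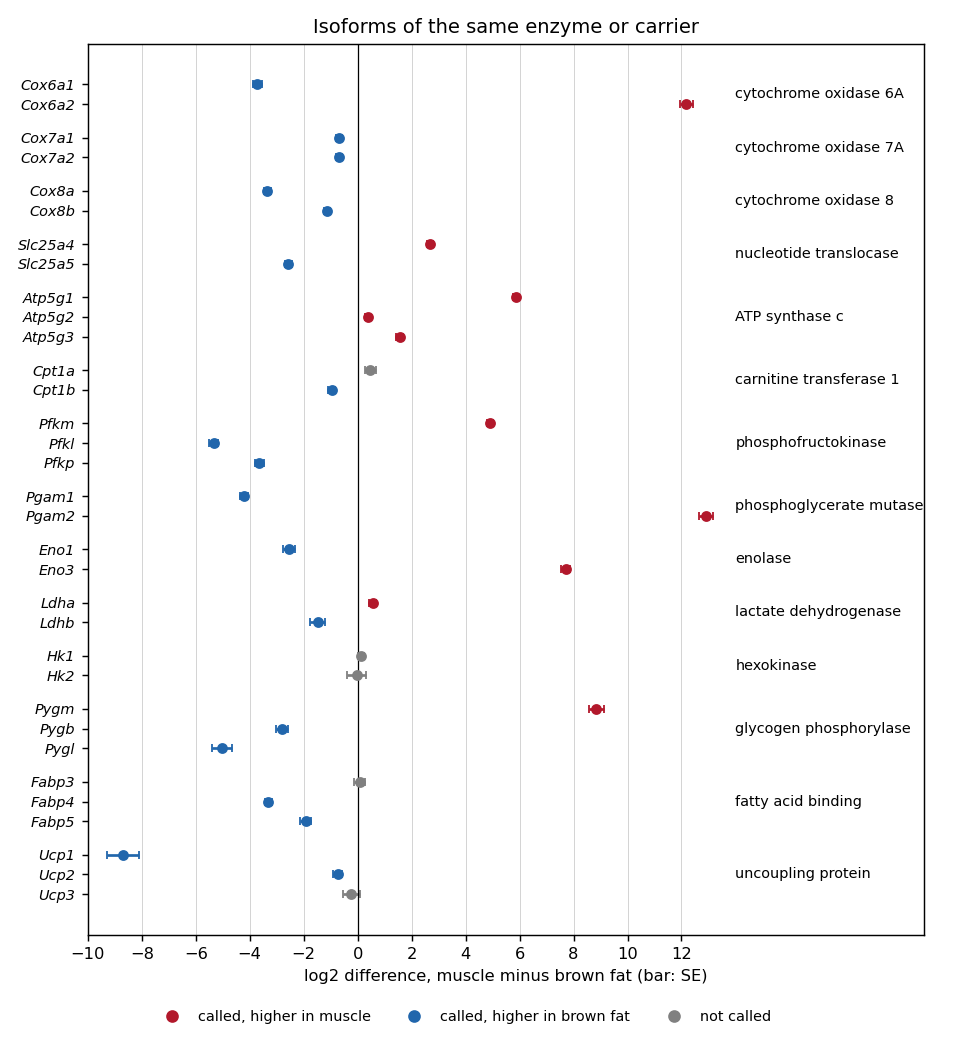
Points are log2 differences, muscle minus brown fat, with bars of 1 SE from the limma fit over 8 arrays, grouped by enzyme or carrier; red is called higher in muscle, blue higher in brown fat and grey not called. Phosphofructokinase, phosphoglycerate mutase, enolase, glycogen phosphorylase, cytochrome oxidase 6A and the nucleotide translocase each have members on both sides of 0.

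Housekeeping factors with a muscle-restricted copy showed the same division. The translation factor Eef1a2 was above background in muscle alone and at least 1080-fold higher, while the general form Eef1a1 differed by -1.75 (SE 0.14). The muscle ribosomal protein Rpl3l differed by 11.32 (SE 0.24, above background on 1 brown fat array) and its general form Rpl3 by -1.6 (SE 0.15).

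The regulators of muscle identity were also higher in muscle, but less widely. Of 12 measured in both tissues, 9 were higher in muscle and 2 in brown fat (median 2.06), and 5 were above background in muscle alone. Myod1 and Myog, master factors of the lineage, were at least 38.1-fold and 43-fold higher, and the cofactor Vgll2 at least 678-fold. Lbx1, which guides limb muscle precursors, differed by 6.62 (SE 0.18), Tbx15, a T-box factor of fast fibres, by 6.11 (SE 0.12), and Mef2c by 4.63 (SE 0.16). Eya1, a transcriptional cofactor of muscle precursors, went the other way, with 5.77, 5.44, 5.48 and 5.72 in muscle and 7.48, 7.04, 7.53 and 7.41 in brown fat. Every brown fat array exceeded every muscle array, and the difference was -1.76 (SE 0.14, adjusted p 1.3e-05). Mef2a differed by -1.32 at the probe used, although its 3 probes ran from -1.32 to 0.52. Pax7, the stem cell factor of adult muscle, did not pass (0.13, SE 0.43).

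Most thermogenic genes were higher in brown fat. Of 25 measured in both tissues, 22 were higher in brown fat, 1 higher in muscle and 2 did not pass, with a median difference of -3.25. Ucp1 was at 9.83, 9.97, 9.62 and 9.81 in brown fat and at 2.72, 0.47, 1.64 and -0.4 in muscle. The brown fat arrays were tight, while the muscle arrays spread widely with array 009 the highest and 007 the lowest. The difference was -8.7 (SE 0.59, adjusted p 4.5e-06), or 416-fold. Cidea, a lipid droplet protein of brown fat, was likewise highest on muscle array 009, at 3.94, 1.7, 2.86 and 1.72 against 10.19 to 10.43, a difference of -7.75 (SE 0.47). The summed brown adipocyte markers, in which these genes count, were 25.3 on muscle array 009 and 7.19 on 007, and their part in the spread was not tested.

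Further thermogenic members with large differences were the proton channel Otop1 (-7.01, although its second probe gave -1.72), the potassium channel Kcnk3 (-6.71, SE 0.19), Letmd1 of the inner membrane (-5.67), the glycerol kinase Gk (-5.42) and the fatty acid receptor Ppara (-4.88, SE 0.14). The lineage factors Prdm16 (-4.25) and Zic1 (-4.05, with another probe at -0.26) were above background on all brown fat arrays and on 3 muscle arrays, and Lhx8 was at least 14.2-fold higher in brown fat and above background on no muscle array. Dio2, which activates thyroid hormone, differed by -2.7 (SE 0.5), with brown fat levels from 0.74 on array 003 to 3.49 on array 011. Members shared with oxidative muscle were close: Cox7a1 differed by -0.69, Cpt1b by -0.97, Ppargc1a by -0.58 (SE 0.19, adjusted p 0.027), and Fabp3 (0.07) and Ucp3 (-0.23) did not pass. Cited1, named in earlier work as a marker of beige fat, was the member higher in muscle, at 0.97 to 1.17 against -1.77 to -1.28, a difference of 2.51 (SE 0.13). Elovl3 and Bmp8b were not above background on all arrays of either tissue and were not tested.

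Adrenergic signalling genes were also mostly higher in brown fat, with 14 of 17 members called higher there and 1 in muscle (median -2.15). The list holds activating and inhibitory members together, so the count does not give the direction of the signal. The beta-3 receptor Adrb3 was at 6.68, 6.61, 6.38 and 6.91 in brown fat and 0.33, -2.29, -0.43 and -0.55 in muscle, a difference of -7.38 (SE 0.49). The beta-1 receptor Adrb1 differed by -2.33 (SE 0.35), and by -6.98 at its other probe. The alpha-1A receptor Adra1a was at least 18.6-fold higher in brown fat, whereas the inhibitory alpha-2A receptor Adra2a was at least 9.21-fold higher in muscle. Downstream, the kinase subunit Prkar2b differed by -5.88 (SE 0.26), the phosphodiesterase Pde3b, through which insulin restrains lipolysis, by -4.39, and the adenylyl cyclases Adcy3 and Adcy6 by -3.75 and -2.15. The probes of Gnas, a locus with several transcripts, gave -3.1 to 1.32, so its value of -1.65 belongs to 1 probe.

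Among genes outside the lists, the largest differences toward brown fat were those of Acsm3, a medium-chain acyl-CoA synthetase (-7.91, SE 0.23), Clstn3, whose adipocyte form acts at lipid droplets (-7.25, SE 0.26), Itpka, an inositol phosphate kinase (-6.7), Nat8l, which makes N-acetylaspartate in brown fat (-6.54), and Aspg (-6.53). Among genes above background in brown fat alone, Cyp2b10 was at least 78.3-fold higher there, Olig1 at least 44.2-fold, the mitochondrial carrier Slc25a48 at least 30.9-fold, Slc22a2 at least 27.4-fold and Rnf182 at least 16.6-fold.

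The adipocyte programme proper followed. Of 15 adipogenic transcription factors measured in both tissues, 11 were higher in brown fat and 2 in muscle (median -1.98). Pparg, the master regulator of adipocytes, was at 6.75, 6.77, 6.85 and 6.57 in brown fat and at 1.44, 1.1, 2.08 and 1.58 in muscle, a difference of -5.19 (SE 0.2), and Cebpa, its partner, differed by -4.9 (SE 0.22). Those called higher in muscle were Cebpd (1.51) and the retinoid receptor Rxrg (1.21). In the lipid droplet list, 24 of 26 members were higher in brown fat and none higher in muscle (median -3.31). The droplet coat gene Plin1 was at 7.42, 7.45, 7.26 and 7.32 against 1.87, 1.25, 2.48 and 1.62, a difference of -5.56 (SE 0.24). Muscle array 003 was the highest muscle array for both Pparg and Plin1. Its sum of mature adipocyte markers, in which both genes count, was also the highest (304, against 154 to 235 on the other muscle arrays). The part of this in those differences was not tested. Plin5, the coat protein of oxidative tissues whose promoter is shown above, was closer between the tissues, at 4.26 to 5.01 in muscle and 7.28 to 7.46 in brown fat, a difference of -2.69 (SE 0.17). Other members were Pck1 of glycerol synthesis (-5.92), the acyltransferases Agpat2 (-4.89) and Dgat2 (-4.06), and the lipases Lipe (-4.78) and Pnpla2 (-3.31). Fitm1, a droplet-forming protein of muscle, was above background in muscle alone and at least 1940-fold higher, while its relative Fitm2 did not pass (-0.24).

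Of 14 fatty acid uptake genes, 12 were higher in brown fat (median -1.93), among them lipoprotein lipase Lpl (-1.93), the transporter Cd36 (-2.27) and the lipase inhibitor Angptl4 (-4.29). Fabp4, the adipocyte binding protein, differed by -3.31 (SE 0.14) and Fabp3, the muscle form, was level at 8.45 to 9.03 in muscle and 8.28 to 9.06 in brown fat. Lipogenic genes were higher in brown fat for 15 of 20 members (median -2.81), and some of them varied widely within brown fat. Fasn, the fatty acid synthase, was at 4.9, 6.48, 2.9 and 6.06 on arrays 009, 011, 003 and 007 of brown fat and at 0.54, -0.61, 0.74 and -0.98 in muscle. Array 003 was the lowest brown fat array and 011 the highest, and the groups did not overlap. The difference was -5.16 (SE 0.78, adjusted p 5.1e-04). The same order of arrays held for Acly (7.23, 8.95, 6.04 and 8.26), which supplies acetyl-CoA and for Elovl6 (5.26, 6.42, 4.44 and 6.03), which lengthens palmitate. By contrast Pcx, a mitochondrial carboxylase, kept to 6.98 to 7.18 in brown fat.

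Genes of fatty acid oxidation were mostly higher in brown fat. Of 21 genes of mitochondrial fatty acid oxidation, 19 were higher in brown fat and none in muscle (1 with the scaling to detected probes), with a median of -2.2 and an extreme of -2.77. Hadhb, the thiolase subunit of the trifunctional protein, was at 6.52, 6.36, 6 and 6.33 in muscle and 9.12, 8.88, 9.03 and 9.03 in brown fat, a difference of -2.71 (SE 0.13), or 6.56-fold. Echs1, Decr1, Acaa2 and Hadh, other members of the list, were at -2.77, -2.72, -2.7 and -2.67. The groups were tight and apart for each, with muscle array 003 the lowest muscle array. Entry into the pathway differed less: Cpt1b, the carnitine transferase of muscle and brown fat, by -0.97 (SE 0.14), and Cpt1a, the liver form, had 0.47 and did not pass (adjusted p 0.089). Mlycd, which removes the inhibitor malonyl-CoA, did not pass either (-0.22). Of 11 peroxisomal genes, 8 were higher in brown fat (median -1.66), led by Ehhadh (-3.42).

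**Figure D3:**
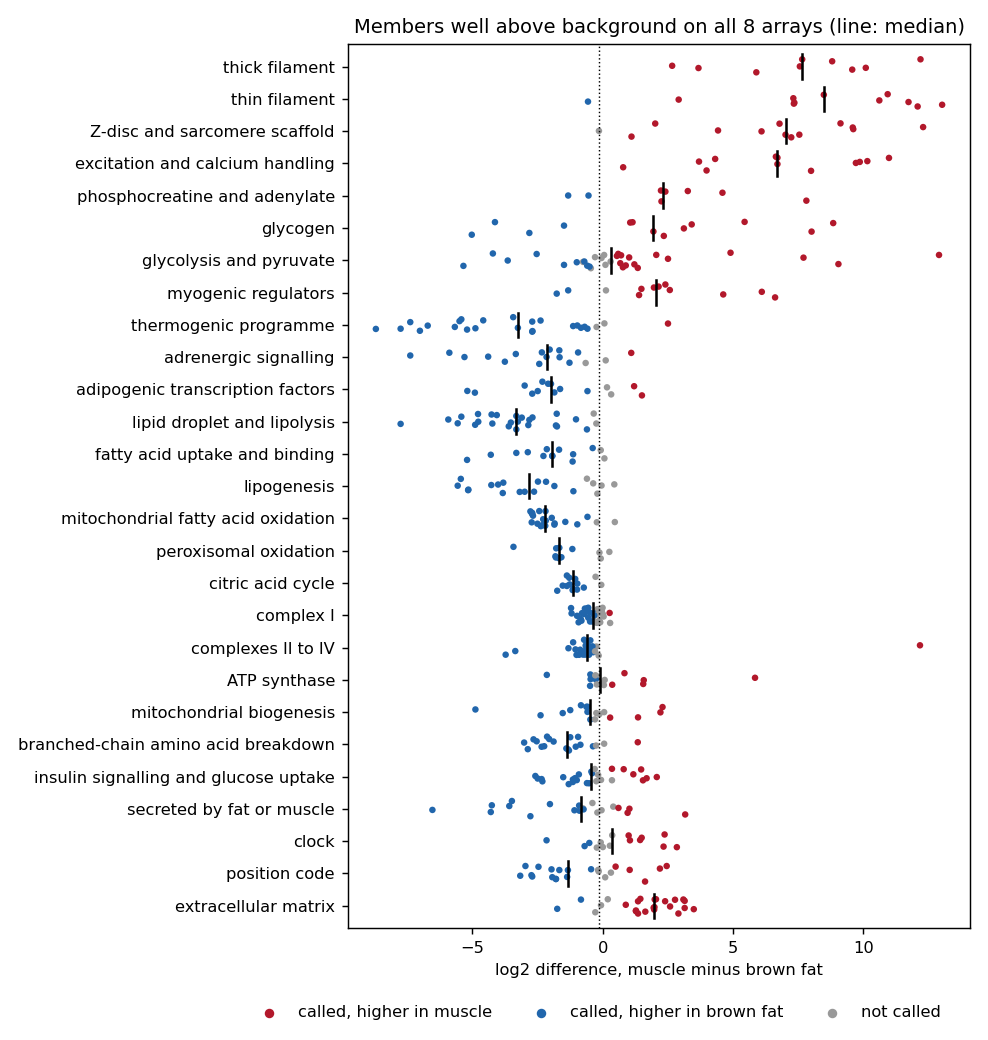
Each point is a gene well above background on all 8 arrays, placed by its log2 difference (muscle minus brown fat) in the row of its list; black bars are list medians and the dotted line is the median of all such genes, -0.14. Medians run from 8.49 for the thin filament to -3.31 for lipid droplets, and complex I and ATP synthase sit next to the dotted line.

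The citric acid cycle and the respiratory chain had list medians nearer 0 than fatty acid oxidation, a description without a test. Citric acid cycle genes were higher in brown fat for 12 of 14 members with a median of -1.14, led by Idh2 (-1.74), Sucla2 (-1.53), Idh3g (-1.37) and Suclg1 (-1.37), and citrate synthase, Cs, was at 8.4 to 8.6 in muscle and 9.12 to 9.35 in brown fat, a difference of -0.72 (SE 0.1). Mdh2, which also serves the malate shuttle, did not pass (-0.05). Of 29 genes of complexes II to IV, 25 were higher in brown fat (median -0.61). Of 35 complex I genes, 19 were higher in brown fat, 1 in muscle and 15 did not pass (median -0.35), with the largest differences at Ndufb3 (-1.21) and Ndufa1 (-1.19). The count for complex I ranged from 13 to 27 higher in brown fat under the other scalings. Of 16 ATP synthase genes, 5 were higher in each tissue, with a median of -0.11 that became 0.01 when the 75th percentile was taken over the probes detected on all 8 arrays. With quantile normalization 4 were higher in muscle and 8 in brown fat, with a median of -0.34.

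Within these complexes the tissue-specific isoforms stood apart. Cox6a2, the contractile-tissue form of a cytochrome oxidase subunit, was at 9.37, 9.4, 9.11 and 9.42 in muscle and -2.25, -3.24, -3.25 and -2.67 in brown fat, a difference of 12.18 (SE 0.23). Cox6a1, the form of other tissues, was at 7.19, 6.46, 6.97 and 7.13 against 10.78, 10.49, 10.68 and 10.7, a difference of -3.72 (SE 0.17). Groups were far apart for both, in opposite directions. Cox8a, also a general form, differed by -3.35 (SE 0.13), but its muscle-type partner Cox8b was higher in brown fat too, by -1.13 (SE 0.12), and Cox7a1 (-0.69) and Cox7a2 (-0.71) went together. The ADP/ATP carriers divided into Slc25a4, 10.24 to 10.32 in muscle against 7.45 to 7.72 (2.68, SE 0.1), and Slc25a5, 2.09 to 2.63 against 4.96 to 5.12 (-2.57, SE 0.14). ATP synthase subunit c genes were all higher in muscle, Atp5g1 by 5.85, Atp5g3 by 1.56 and Atp5g2 by 0.37, but a second Atp5g1 probe gave -0.62. Atp5c1, the gamma subunit, likewise gave -2.14 at the probe used and 0.4 at another. Ndufa6 was at -6.02 on muscle array 007 and 6.42 to 6.73 on the other muscle arrays, and its difference of -3.51 (SE 2.69) was not called. Without array 007 it was -0.36 and called.

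Regulators of mitochondrial content were mixed, with 9 of 17 higher in brown fat and 4 in muscle (median -0.47). Ppara, already given, was followed by the coactivator Ppargc1b (-2.38, SE 0.13) and the deacetylase Sirt3 (-1.53). Perm1, a muscle partner of PGC-1, was higher in muscle (2.22, SE 0.2), as was Esrrb (2.3), and Tfam, which maintains mitochondrial DNA, did not pass (0.06).

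Branched-chain amino acid breakdown was higher in brown fat for 17 of 20 genes, with a median of -1.36. Bckdhb, a subunit of the committed dehydrogenase, was at 3.8, 3.57, 3.33 and 3.63 in muscle and 6.52, 6.65, 6.24 and 6.38 in brown fat, a difference of -2.87 (SE 0.14). The propionyl-CoA carboxylase Pccb differed by -3.01 (SE 0.11), Acad8 of valine breakdown by -2.65, Mccc1 of leucine breakdown by -2.53 and the dehydrogenase core Dbt by -2.34. Groups did not overlap for any of these genes. At the first step the mitochondrial transaminase Bcat2 was higher in brown fat by a small margin (-0.37, SE 0.14) and the cytosolic Bcat1 was higher in muscle (1.35, SE 0.29). The kinase Bckdk, which switches the dehydrogenase off, did not pass (0.06), nor did the phosphatase Ppm1k, which switches it on (-0.25).

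Insulin signalling genes were called in both directions. Of 27 genes measured in both tissues, 7 were higher in muscle and 15 in brown fat (median -0.43). The share higher in muscle was near the 25% of all genes measured in both tissues. The share higher in brown fat was above the 36.1% of all such genes. Irs1, an insulin receptor substrate, was higher in muscle on every array (3.97 to 4.56 against 1.96 to 2.4, a difference of 2.08, SE 0.16), and Irs2 was higher in brown fat (-0.91, SE 0.27). The Rab regulators of glucose transport divided too, Tbc1d1 at 1.55 and Tbc1d4 at -0.99. Slc2a4, the insulin-driven glucose transporter, was at 7.29, 7.25, 7.45 and 7.58 in muscle and 6.75, 7.76, 6.67 and 6.94 in brown fat. Brown fat array 011 was above every muscle array and the others below, and the test did not call the gene (difference 0.36, SE 0.24, adjusted p 0.22). Without brown fat array 011 the difference was 0.6 and was called. Higher in brown fat were the regulatory subunit Pik3r1 (-2.49), the receptor-binding inhibitor Grb14 (-2.34), the translation repressor Eif4ebp1 (-2.31) and Akt2 (-1.51).

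Of 20 secreted factors measured in both tissues, 11 were higher in brown fat and 4 in muscle (median -0.82). The brown fat factor Nrg4 differed by -6.53 (SE 0.37), Adipoq (adiponectin) by -4.25 (SE 0.24), Rbp4 by -3.58 and leptin, Lep, by -3.48 (SE 0.46). The muscle growth inhibitor Mstn (myostatin) was above background in muscle alone and at least 85.2-fold higher, and Fndc5, the precursor of irisin, differed by 3.17 (SE 0.32). Fgf21 was not above background on all arrays of either tissue and was not tested. Clock genes are given because collection time was not stated: 7 of 15 were higher in muscle and 3 in brown fat (median 0.37), with the output factors Dbp at 2.85 (SE 0.16) and Hlf at -2.15 (SE 0.11). The core gene Arntl did not pass (0.37, adjusted p 0.068).

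Genes of body position differed by their group number, with exceptions. Hox genes are laid out in numbered groups, low numbers acting toward the head and high numbers toward the tail and the far limb. Of the 22 position genes measured in both tissues, 13 were higher in brown fat and 5 in muscle (median -1.35), and 7 were above background in muscle alone. Hoxa5 was at -0.39, -0.6, -0.69 and -0.93 in brown fat and -3.38, -3.92, -3.91 and -4.03 in muscle, a difference of -3.16 (SE 0.18). Hoxc5 (-2.96), Hoxb4 (-2.73), Hoxa4 (-2.7) and Hoxa3 (-1.96) lay the same way, and no brown fat array overlapped a muscle array for any of them, while Hoxb3 (-0.17) did not pass, although the mean of its probes was called higher in brown fat. Groups 6 and 7 were mixed, with Hoxb7 at 0.1, Hoxa6 at 0.32 not called and Hoxc6 at -0.44 called higher in brown fat, while Hoxb6 (2.46, SE 0.61) ranged from 0.61 to 3.92 in muscle. Hoxa9 (1.63), Hoxd9 (2.2) and Hoxd8 (1.04) were higher in muscle. Hoxb8 lay the other way (-1.83, SE 0.5, adjusted p 0.012) and was above background on all brown fat arrays and on 2 muscle arrays.

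Of groups 9 to 11, 5 genes were above background in muscle alone. Hoxc9 was at 3.28, 3.36, 3.38 and 3.29 in muscle and at -6.49, -6.08, -6.18 and -6.48 in brown fat, at least 228-fold higher. Hoxc10 was at least 70.1-fold higher, Hoxa10 at least 19.5-fold, Hoxc11 at least 13.8-fold and Hoxa11 at least 3.8-fold. Other genes of these and higher groups were not tested: Hoxb9, Hoxd11, Hoxd12, Hoxb13, Hoxc13 and Hoxd13 were above background on no array of either tissue. Hoxd10 was above background on 3 muscle arrays and no brown fat array, Hoxa13 on 3 and 1, and Hoxc12 on 2 and 3. The hindlimb factors Tbx4 (at least 10.8-fold) and Pitx1 (at least 6.41-fold) were also above background in muscle alone, and Tbx5, the forelimb and upper trunk factor, was higher in brown fat (-1.93, SE 0.21). The place of a tissue in the body differs between the groups together with its type, and the parts of these cannot be told apart.

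**Figure D4:**
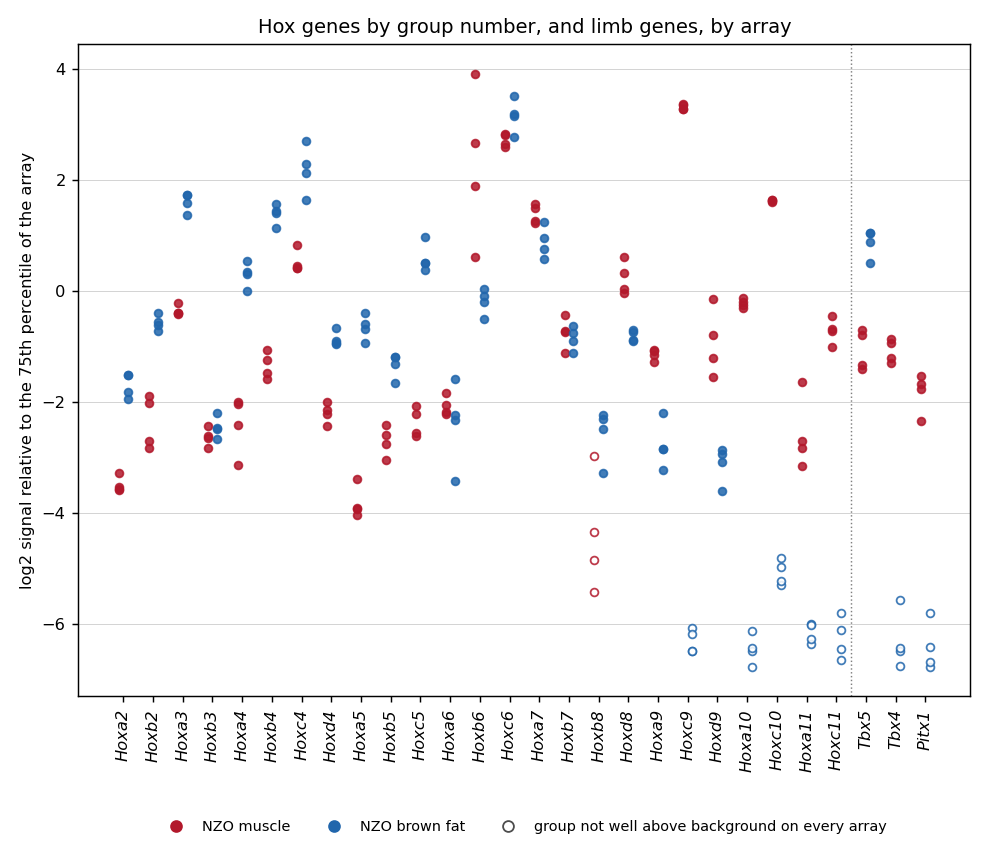
Each point is 1 array, as log2 signal with its 75th percentile at 0, red for muscle and blue for brown fat, with Hox genes in order of their group number and limb genes at the right. Open points belong to a group that was not well above background on every array; Hoxc9, Hoxa10, Hoxc10, Hoxa11, Hoxc11, Tbx4 and Pitx1 are open in brown fat, and Hoxb8 is open in muscle.

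Matrix genes were higher in muscle for 20 of 25 members (median 1.96). Col1a1, the main fibrillar collagen, was at 7.39, 7.07, 7.35 and 7.65 in muscle and 4.42, 4.09, 3.92 and 4.42 in brown fat, a difference of 3.15 (SE 0.17). Fibronectin, Fn1, differed by 3.5 (SE 0.19) and laminin Lama2 by 3.15 (SE 0.16), while the basement membrane collagens Col4a1 (0.2) and Col4a2 (-0.28) did not pass. Lama4, the laminin of vessels and adipocytes, was higher in brown fat (-0.83, SE 0.17). Postn was called higher in brown fat (-1.74, SE 0.58, adjusted p 0.029) with a muscle value of -1.05 on array 007 against 0.96 to 1.77 on the others. Fibroblast markers, of which 6 of 6 measured in both were higher in muscle, summed to 488 to 670 in muscle and 95.2 to 111 in brown fat. That list shares Col1a1, Col3a1, Dcn and Lum with the matrix list, and the part of fibroblasts in the matrix differences was not tested.

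Markers of other cell types differed for some lists and were mixed or not called for others. Macrophage markers were higher in muscle for 8 of 9 members, with sums of 47.9 to 64.1 against 26.7 to 32. Of 5 mast cell markers, the 4 proteases were higher in muscle (Cpa3 by 3.24, Mcpt4 by 2.91, Cma1 by 2.81 and Tpsb2 by 1.07), and the receptor Kit, also made by other cells, was higher in brown fat (-2.07). Their sums were 6.76 to 10.8 in muscle and 2.47 to 4.3 in brown fat. Endothelial markers were called higher in brown fat for 5 of 9 and in muscle for 1, with sums of 50.4 to 56 against 64.6 to 88.4. In the Schwann cell list 2 of 6 members were called in each direction (median -0.23), with sums of 7.86 to 13.3 in muscle and 58.2 to 102 in brown fat. S100b, which adipocytes also make, differed by -5.13 and counts in these sums. Its part in them was not tested, and they do not stand for Schwann cells alone. Satellite cell markers measured in both tissues were not called (0 of 3). Calcr and, at the probe used, Chodl were above background in muscle alone, Cdh15 was above background on all muscle arrays and 1 brown fat array, and the list summed to 8.42 to 9.6 in muscle and 2.05 to 2.6 in brown fat. Mural cell markers were called higher in muscle for 3 of 7 and in brown fat for 2, with sums of 144 to 157 against 38.8 to 51.4. Their median difference was -0.05 and the highest was 6.1, and the list includes Des, which is also in the Z-disc list. The sums therefore do not stand for mural cells alone. The T cell sum overlapped between the tissues. B cell markers summed to 1.49 to 1.75 in muscle and 2.74 to 3.61 in brown fat, erythroid markers to 99 to 207 and 255 to 325, and mesothelial markers, none of which was measured in both tissues, to under 1 in each.

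Liver transcripts were the clearest difference among muscle arrays. The summed liver list was 77.2, 40.5, 286 and 212 on muscle arrays 009, 011, 003 and 007 and 27.6, 25, 38.2 and 31.2 in brown fat. Alb, serum albumin, was at 2.48, -0.23, 5.23 and 4.54 in muscle and -2.07, -1.58, 0.83 and -2.31 in brown fat. Arrays 003 and 007 were high in muscle, array 003 was high in brown fat, and muscle 011 lay below brown fat 003. Of 8 liver markers measured in both, 6 were called higher in muscle, and Alb had a difference of 4.28 (SE 1.22, adjusted p 0.015). Without muscle arrays 003 and 007, 11414 genes were called, 4870 higher in muscle and 6544 in brown fat, and the list medians for thick filament and fatty acid oxidation were 7.95 and -2.12. Of the 8 liver markers, 2 were then called, with a median of 1.49 against 2.84 over all arrays.

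**Figure D5:**
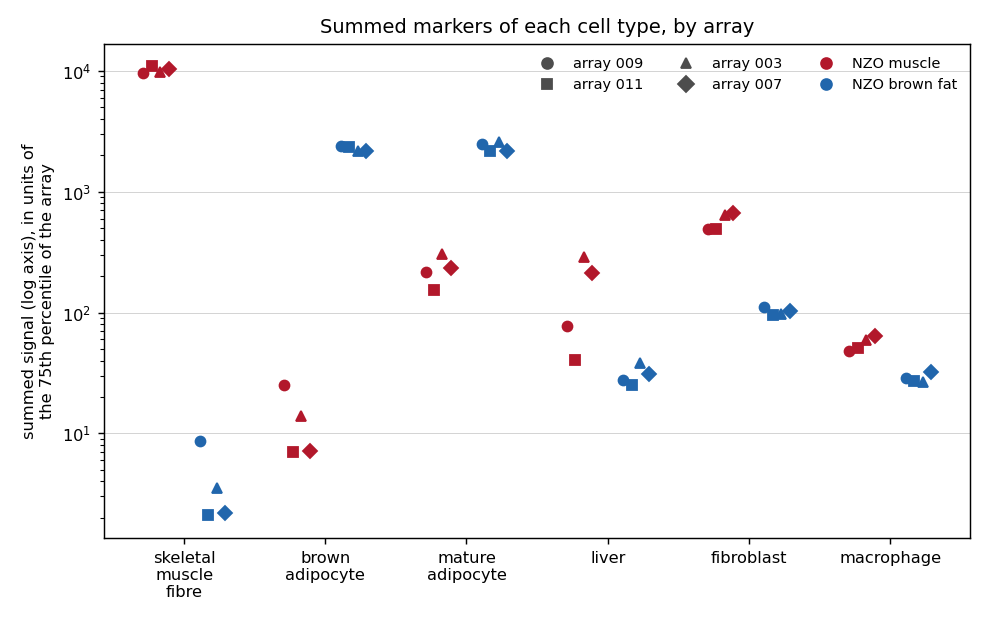
Summed signal of each marker list on each array, in units of the array's 75th percentile on a log axis; red is muscle, blue brown fat, and the symbol gives the array number. Muscle fibre and brown adipocyte sums are separated by a wide margin, and the liver sum is high on muscle arrays 003 and 007.

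The same contrast in B6 mice (4 muscle and 4 brown fat arrays) was used to see where the NZO contrast differed. In a fit of all 16 arrays, the muscle minus brown fat difference differed between the strains for 767 of 22287 genes (3.44%), more positive in NZO for 421 (1.89%) and more negative for 346 (1.55%). The balance depended on the setting: 54.9% of these calls were more positive in NZO, but 44.4% among genes well above background on all 16 arrays, 44.8% without B6 muscle array 011 and 63.3% with the replicate number as a block. Among the 22 genes examined singly, 7 were called, all contractile or muscle-isoform genes and all with a wider contrast in NZO: Myh4 by 9.29 (SE 1.22), Ckm by 8.52, Acta1 by 7.11 (SE 0.8, adjusted p 1.2e-04), Tnnc2 by 6.88, Cox6a2 by 5.72, Pvalb by 5.59 and Atp2a1 by 3.57. In NZO brown fat Myh4 was above background on 3 arrays and Ckm on 1, so these values rest in part on readings at background. The muscle means were alike (Acta1 10.74 in NZO and 10.68 in B6), and the brown fat values were not: Acta1 was at 6.88, 4.95, 5.66 and 5.34 on B6 brown fat arrays and at 0.75, -2.51, -1.43 and -2.22 in NZO. No NZO brown fat array reached a B6 one. The summed muscle fibre markers were 908, 221, 377 and 354 in B6 brown fat against 8.63 or less in NZO. That list holds all of the 7 called genes except Cox6a2, so the sum is not a separate measure. The part of muscle fibre signal in the strain difference was not tested. Leaving out 1 B6 muscle array, 011, raised the count from 767 to 1267, and that array had a summed mature adipocyte signal of 1290 against 211 to 265 on the other B6 muscle arrays. The part of this in the count was not tested. The strain difference was not called for Ucp1 (-1.86, adjusted p 0.45), Cidea (-1.4), Slc2a4 (0.26), Cpt1b (0.16), Cox8b (-0.06), Slc25a4 (0) or Fasn (1.19). Fasn was nonetheless at 6.99 to 7.32 on all B6 brown fat arrays and 2.9 to 6.48 on the NZO ones.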

How the data were processed

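RNA of NZO muscle and brown fat (4 arrays each) was labelled with Cy3 and hybridised to 1-colour Agilent mouse arrays with probes of 60 bases. The intensity values are the processed signals as deposited, background-subtracted by Feature Extraction 11.0.1.1 per the file headers, whose probe build is mm9; the submitters' processing notes name version 9.1. The series table deposited by the authors holds linear intensity values (medians of 43 to 51 on these arrays) that match, within a relative tolerance of 1e-04, the mean of the median spot signals of each identifier; log2 of these values, scaled to the 75th percentile, served as an alternative.

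Control spots and outlier flags were left out, leaving 55681 probes. Each array's 75th percentile was subtracted on the log2 scale. A gene took its probe with the highest mean, and was tested when well above background on all 4 arrays of a tissue. Of 34947 names, 27656 came from RefSeq. Differences were fitted with limma 3.58.1 in R 4.3.3 over the 8 arrays (16 for the strain comparison) without a block, with Benjamini-Hochberg adjustment over all tested genes and a threshold of 0.05. "At least" folds set the bright tissue's mean against the dim tissue's detection limit, the higher per array of the lowest signal well above background and the probe's own. The number of arrays limits the precision.

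Members and lists were chosen with earlier results of these data known. Named genes were the 10 highest and 10 lowest called differences, the 6 largest bounds each way, up to 5 called members of each list and direction, and fixed marker and isoform genes; other genes named were chosen after their values were seen. On simulated data for this comparison, 86% of genes changed by 2 log2 units were called over 21636 genes, and 54% of those changed by 1. The simulation changed 50 genes at each size, whereas 62% of all genes were called in the data. The adjusted threshold was therefore stricter in the simulation, and these shares do not give the power of the comparison. Same-numbered arrays of the tissues had correlations of deviations of 0.26, -0.14, -0.16 and -0.12 and were not treated as pairs. The alternatives covered scaling, background, filters, probe choice, blocks for slide and number, and leaving out arrays. Some genes are not reported here.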

Additional observations from a re-analysis of the deposited data

Results flagged for a closer look

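Of 476 groups of 4 arrays examined over 239 named genes, 18 held an array far from the other 3 (Dixon's test), and chance alone marks about 1 in 20 groups. Among muscle arrays, 011 was low for Actc1 (8.69 against 9.29 to 9.4) and Gys2 (-3.18 against -1.96 to -1.86), and 003 was low for Idh2 (5.48 against 6.16 to 6.25). Muscle 007 was at -6.02 for Ndufa6 against 6.42 to 6.73. Muscle 009 was low for Myod1 (0.41) and high for Hoxa3 (-0.22), Pdha1 (5.6) and Slc6a8 (5.43).

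Among brown fat arrays, 009 was high for Pgam2 (-2.5 against -3.7 to -3.62), and 011 was high for Hk2 (4.27 against 2.67 to 2.75) and Phkg2 (3.01) and low for Ppara (5.91). Array 007 was low for Hadh (6.85) and Kcnk3 (4.6), and array 003 was low for Pdha1 (5.9) and Srl (0.09 against 0.67 to 0.7) and high for Aldoc (-0.43 against -1.35 to -1.28) and, below background on every brown fat array, for Calcr (-6.18 against -6.52 to -6.5).

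The muscle against brown fat contrast differed between NZO and B6 by the interaction test in limma for 7 of 22 genes examined: Myh4 (9.29), Ckm (8.52), Acta1 (7.11), Tnnc2 (6.88), Cox6a2 (5.72), Pvalb (5.59) and Atp2a1 (3.57). Ckm was above background on 1 NZO brown fat array and Myh4 on 3, so their values rest in part on readings at background.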

How the results depend on the processing

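The count of called genes stayed within 1.5 times of 13417 under every alternative of scaling, background, filter, probe, fit and slide, and was 12091 with the replicate block. Leaving out 1 array gave 12211 to 13289 in all, 5314 to 5842 higher in muscle and 6897 to 7447 higher in brown fat. A fold of at least 2 lowered the counts to 7470, 3395 and 4075. Leaving out muscle arrays 003 and 007 together (11414 called) was chosen after seeing the data. For the strain contrast, 767 calls became 477 with genes well above background on all 16 arrays and 480 with the replicate block, and 546 to 1267 when 1 array was left out; the highest count came without B6 muscle array 011. Samples with the same number were not shown to be pairs.

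Of 3778 values of named genes under the alternatives, 3696 kept direction and call, 60 lost the call, 14 gained it and 8 changed sign. Those that changed sign were 3 genes. The value of Synpo2, muscle minus brown fat, was 3.83 with normexp, 2.88 with the mean of its probes and -0.19 to 7.53 when 1 array was left out, positive without any 1 of the brown fat arrays. With the mean of the probes, the value of Hk1, muscle minus brown fat, was -0.88, and that of Tpm3, muscle minus brown fat, was 3.26. These genes have probes that disagree. Dim signals bound the folds of genes found in 1 tissue. The slide that held both tissues, with 2 muscle arrays and 1 brown fat array, gave the same sign for 21 of 21 genes examined. These arrays are among the 8 compared and most of the genes differed widely, so the same sign was largely fixed beforehand.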
